A study of Mus musculus with 17 samples.

Results

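Of the transcription factor genes linked to the epidermis and its differentiation, 9 are described here. They include the grainyhead-like genes Grhl1 and Grhl3, the Krüppel-like zinc finger genes Klf4 and Klf5, and the AP-2 genes Tfap2a and Tfap2c. The others are the leucine zipper genes Cebpa and Cebpb and the ETS gene Ehf. A peak was counted for one of these genes when it lay inside the gene (overlapped it). A peak outside all protein-coding genes was counted when one of these genes was the nearest protein-coding gene. By this rule 19 of the 2948 peaks in the 4 deposited lists belonged to the 9 genes. All of the 19 came from 1 list, that of H3K27ac in control epidermis.

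The lists come from chromatin immunoprecipitation and sequencing of crosslinked epidermis from female mice. The antibodies were directed against UTX, the protein product of Kdm6a, and against histone H3 acetylated on lysine 27 (H3K27ac), which marks promoters and enhancers in use. The Utx-deleted mice (Cre+; Utx fl/fl) carried loxP-flanked Utx alleles and Cre recombinase under the Krt14 promoter, which is active in basal keratinocytes. The control mice (Cre-; Utx fl/fl) carried the same alleles without Cre. Cells of the epidermis that do not descend from Krt14-expressing cells, such as immune cells, keep Utx in this model. The labels hold 3 Utx-deleted and 2 control H3K27ac libraries, 3 Utx-deleted and 3 control UTX libraries, and 3 input libraries of each genotype. Their protocols state 3 per group, and which libraries went into the control H3K27ac list, the source of all 19 peaks, is not known. The libraries of a group were merged before peaks were called, so the values below have no error from replicates, and the genotypes could not be compared by a test.

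As background, the surface of the skin is renewed by basal keratinocytes that stop dividing, move outwards and build the cornified barrier. GRHL, KLF, AP-2, C/EBP and ETS proteins bind promoters and enhancers of the keratin, junction and envelope genes that are switched on along this path, and several of them also act on one another's genes. UTX removes methyl groups from lysine 27 of histone H3 and is a subunit of complexes that methylate lysine 4 at enhancers, and the study asked how its loss affects differentiation.

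The 4 lists differ greatly in length, which bears on every count. The Utx-deleted H3K27ac list held 48 peaks and the control H3K27ac list 2140, a ratio of 44.6, and the Utx-deleted UTX list held 213 peaks and the control UTX list 547. Read depth is unknown, since the lists hold positions only. Of 10 keratinocyte markers 6 had a control H3K27ac peak (Krt10, Dsp, Jup, Cdh1, and, of the 9 genes themselves, Grhl3 and Tfap2a), while the basal keratins Krt5 and Krt14, Krt1 and Trp63 had none. Of the markers of other cell types, 0 of 5 immune, 0 of 4 melanocyte and 0 of 4 fibroblast genes had one, and 1 of 3 endothelial genes, Pecam1. It had 6 such peaks, 5 of them inside the gene, as had Grhl3. With 6.13% of all genes having such a peak, counts of 0 in lists this short are near the background.

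In Utx-deleted epidermis 0 of the 9 genes had an H3K27ac peak, against 6 of the 9 in control epidermis. Over all 21887 protein-coding genes, 0.128% had a peak in the Utx-deleted list and 6.13% in the control list. Grhl3 had 0 peaks in the Utx-deleted list and 6 in the control list. Tfap2a had 0 peaks in the Utx-deleted list and 5 in the control list, and Grhl1 had 0 in the Utx-deleted list and 3 in the control list. Klf4 and Cebpb had 0 each in the Utx-deleted list and 2 each in the control list, and Ehf had 0 in the Utx-deleted list and 1 in the control list. Klf5, Tfap2c and Cebpa had none in either list. Of the 9 genes 0 had a peak in both genotypes, and so had only 2 of all genes (0.00914%). The whole Utx-deleted list is so short that the 19 control peaks, scaled by the lengths of the lists, would correspond to 0.426 peaks, so the count of 0 at these genes cannot be told apart from the shortness of that list. In such bulk preparations fewer cells of a type and less signal per cell cannot be told apart either.

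With the UTX antibody the 9 genes had 0 peaks in the Utx-deleted list and 0 in the control list, where 0.516% and 2.44% of all genes had one. With shares this low, 0 of 9 lies near the background of both lists. Of the 19 H3K27ac peaks 0 overlapped a peak of the other 3 lists, where 4 of all 2139 placed control H3K27ac peaks did (0.187%), and within 1 kb the numbers were 0 of 19 and 6 of 2139 (0.281%), so that here too the 9 genes lie near the background. Whether the peaks of the UTX lists mark bound UTX was not tested, nor was the genome build of these lists. With Utx deleted, the UTX list still held 213 peaks. Gene ends were 1 kb away or less for 2.925% of the control UTX peaks. For control H3K27ac peaks moved by 10 kb down or up, this share was 9.12% and 9.82%. The distances that follow are thus distances to listed peaks. The nearest control UTX peak to any of the 9 genes lay 251377 bp from Tfap2a, and the next nearest 440651 bp from Cebpb. The remaining 7 genes were 1.22 Mb (Grhl3) to 6.03 Mb (Cebpa) from a control UTX peak, where the median over all genes was 1.30 Mb. The nearest Utx-deleted UTX peak lay 1.25 Mb (Cebpb) to 62.9 Mb (Cebpa) away, against a median of 9.08 Mb.

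**Figure D1:**
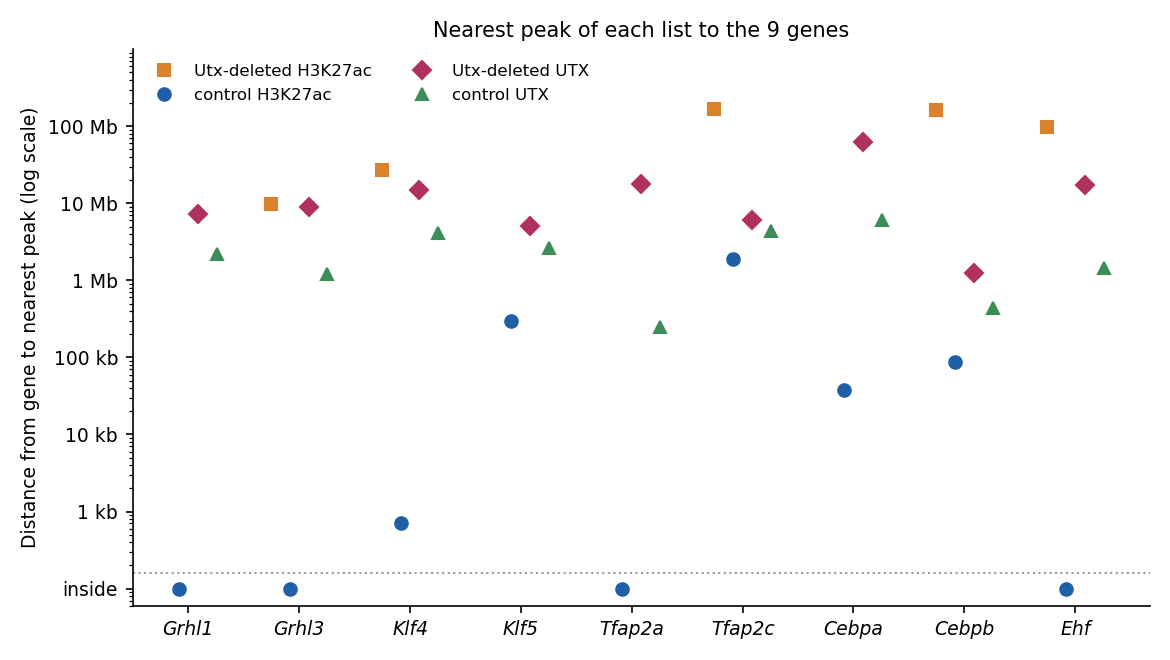
Distance in bp, on a log scale, from each of the 9 genes to the nearest peak of each list, with 1 symbol per gene and list; symbols at the lowest level mark a peak inside the gene, and a symbol is absent where the chromosome has no peak of that list. The control H3K27ac symbols of Grhl1, Grhl3, Tfap2a and Ehf lie inside the gene and that of Klf4 at 717 bp, whereas every UTX symbol lies at 251377 bp or more.

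Grhl3, which in mice is needed for barrier formation and for closure of wounds and of the neural tube, had the most peaks of the 9. The gene spans 31746 bp of chromosome 4 (135541887 to 135573632, GRCm38) and is transcribed from the higher coordinate. Its peaks lay in the first part of the gene and at 1 upstream position. Downstream of the annotated start site, peaks of 203 and 365 bp began 248 and 647 bp away, and the gap between them was 197 bp. Further into the gene lay a peak of 326 bp, 3744 bp from the start site, and a pair of 244 and 275 bp, at 7322 and 8172 bp. The widest peak, of 439 bp, lay 24358 bp upstream (chr4:135597990-135598428), in the interval of 112825 bp that separates Grhl3 from Ifnlr1. Of the genes with a control H3K27ac peak, 17 had more peaks than Grhl3 and 20 others had as many. With peaks under 1 kb apart merged Grhl3 had 4, and ranks were not computed for merged peaks.

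Tfap2a encodes AP-2alpha, a factor of surface ectoderm and epidermis. The gene covers 24437 bp of chromosome 13 (40713802 to 40738238), again transcribed from the higher coordinate, and all 5 of its peaks lay inside it within 5632 bp. In the direction of transcription they were 482, 361, 354, 269 and 255 bp wide, so that each was narrower than the one before. The 2 start sites used here for Tfap2a both lie inside the annotated gene, and none was available at its higher-coordinate end. The first 3 peaks lay 2394, 1780 and 624 bp upstream of the first of these sites, but inside the gene. The first of them was 443 bp from the higher-coordinate end. The last pair lay 107 and 1377 bp downstream of the second site. Both of these sites fell in the gap of 1856 bp between the third peak and the fourth, the widest gap of the group. The last pair also overlapped the lncRNA gene Gm26688, and which gene such a peak belongs to cannot be told from its position. There were 38 genes with more peaks than Tfap2a and 16 others with as many. With peaks under 1 kb apart merged Tfap2a had 3, and here too the rank was not computed anew.

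**Figure D2:**
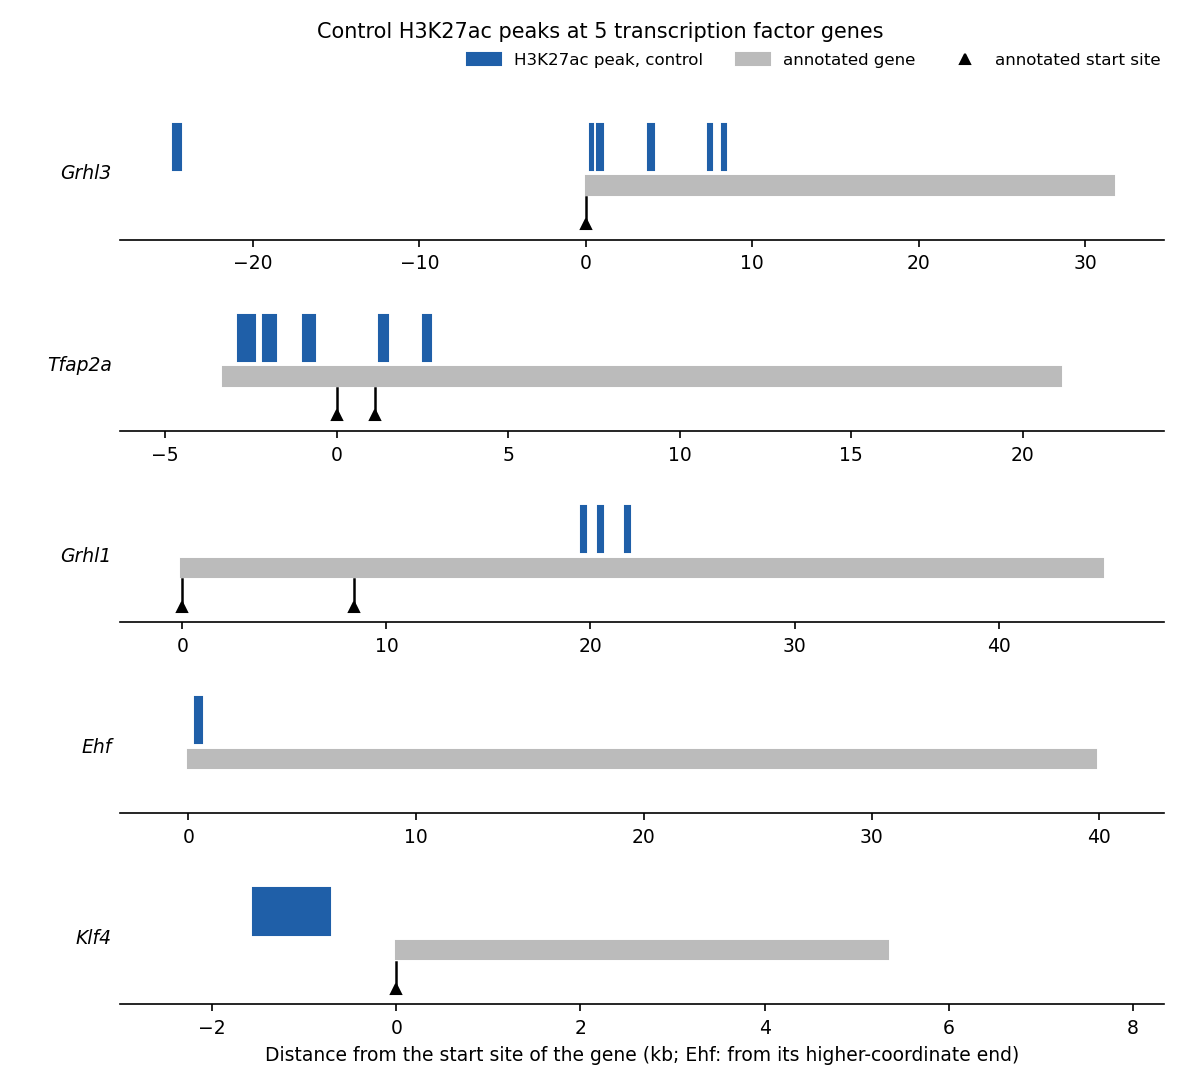
Positions of control H3K27ac peaks (blocks, drawn to their width) along 5 genes (grey bars), in kb from a start site (triangles; first site for Grhl1 and Tfap2a) with transcription running to the right, or from the higher-coordinate end for Ehf. The 5 peaks of Tfap2a lie inside the gene, within 5632 bp around the start sites drawn. Of the 6 Grhl3 peaks 5 lie in the first part of the gene, and the 3 Grhl1 peaks lie far inside. The second Klf4 peak, 590332 bp away, is outside the range drawn.

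Klf4, a factor of the suprabasal layers that is needed for the barrier in mice, carried the widest peak of the group. It was 842 bp wide (chr4:55533192-55534033), wider than 98.7% of the list, and lay 717 bp upstream of the start site of a gene of only 5339 bp. The same peak overlapped Gm12506, an lncRNA gene on the upstream side of Klf4. The other peak counted for Klf4, of 351 bp, lay 590332 bp upstream, in an interval of 1207530 bp without protein-coding genes that ends at Actl7b. Within 100 kb of the gene only the first peak remained. When genes of all kinds were used for the assignment, an alternative chosen after seeing the data, Klf4 had 0 peaks.

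For 6 of the 9 genes the RefSeq table used here gives start sites, and the promoter windows of the 3 of these with a peak within 1 kb of their own start site are shown, from 250 bases before to 50 bases after the site (RefSeq, GRCm38.p6, strand of the gene, which is the minus strand for all). They are chr4:135573583-135573882 for Grhl3, chr4:55532426-55532725 for Klf4, and chr13:40734871-40735170 and chr13:40733746-40734045 for the first and second start site of Tfap2a. Capitals mark matches to motifs of the families described here, searched on both strands.
Grhl3: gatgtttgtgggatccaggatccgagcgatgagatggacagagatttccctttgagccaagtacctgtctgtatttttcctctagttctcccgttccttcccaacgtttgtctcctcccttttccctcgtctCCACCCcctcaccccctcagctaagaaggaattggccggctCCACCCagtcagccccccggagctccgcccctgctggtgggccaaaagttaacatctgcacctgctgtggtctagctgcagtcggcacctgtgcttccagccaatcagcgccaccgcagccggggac
Klf4: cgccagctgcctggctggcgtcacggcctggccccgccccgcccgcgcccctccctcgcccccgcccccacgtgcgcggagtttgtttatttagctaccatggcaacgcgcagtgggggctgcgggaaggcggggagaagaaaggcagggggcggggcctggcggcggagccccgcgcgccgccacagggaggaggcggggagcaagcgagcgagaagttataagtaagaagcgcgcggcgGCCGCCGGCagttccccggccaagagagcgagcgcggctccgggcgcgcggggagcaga
Tfap2a, first start site: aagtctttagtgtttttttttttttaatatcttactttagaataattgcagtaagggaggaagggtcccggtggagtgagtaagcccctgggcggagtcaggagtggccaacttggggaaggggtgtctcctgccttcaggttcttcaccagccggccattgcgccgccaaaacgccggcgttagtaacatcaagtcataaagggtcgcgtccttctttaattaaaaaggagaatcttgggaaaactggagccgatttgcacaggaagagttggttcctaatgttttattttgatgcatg
Tfap2a, second start site: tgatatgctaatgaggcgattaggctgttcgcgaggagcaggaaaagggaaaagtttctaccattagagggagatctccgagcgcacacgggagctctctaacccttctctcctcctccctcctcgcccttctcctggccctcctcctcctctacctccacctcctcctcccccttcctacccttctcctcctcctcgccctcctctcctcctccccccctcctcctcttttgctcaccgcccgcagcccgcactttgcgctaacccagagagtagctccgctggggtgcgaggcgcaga

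These windows lay beside the peaks and not under them. Of the 19 peaks, 0 overlapped a promoter window of any gene (Wilson 95% interval 0 to 16.8%), against 243 of 2084 peaks of the list (11.7%, 10.4 to 13.1), counted on chromosomes that have windows. Within 1 kb of an annotated start site of any gene lay 7 of the 19 (36.8%, 19.1 to 59.0) and 838 of the 2084 (40.2%, 38.1 to 42.3). The intervals cover counting error only. No start site was available for Ehf, whose peak lay near a gene end, or at the higher-coordinate end of Tfap2a. The counts of peaks at windows and start sites may therefore miss peaks there. The GC content of the windows was 58.3% for Grhl3, 74.3% for Klf4, and 46.3% and 61.0% for the first and second start site of Tfap2a.

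The motifs searched were AACCGGTT for GRHL, CCACCC for KLF, GCCNNNGGC for AP-2, TTGCNNCAA for C/EBP, CCGGAAGT for ETS and TGANTCA for AP-1. Over the 32851 windows of the table they were found in 0.146%, 31.5%, 16.6%, 2.08%, 3.89% and 7.81% of windows, in that order. The Grhl3 window held CCACCC at positions -118 and -77, counted from the start site, in the direction of the gene. The Klf4 window held 1 AP-2 match, GCCGCCGGC, which began at position -9. Neither Tfap2a window held any of the 6 motifs. The KLF and AP-2 motifs are common in promoters, and a match describes letters only.

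Grhl1, which acts on desmosomal cadherin genes, had 3 peaks that formed a tight group deep inside the gene on chromosome 12 (24572232 to 24617391). They were 273, 263 and 235 bp wide, lay 11092, 11934 and 13270 bp downstream of the second annotated start site, and spanned 2413 bp. None was near either start site of Grhl1 or its far end. All 3 were at or below the median width of the list, 273 bp, and with only the wider peaks of both genotypes Grhl1 had 0. A further 3 peaks within 100 kb lay inside Taf1b, the neighbouring gene, at 33482 to 36950 bp from Grhl1. The neighbour on the other side is a paralogue of Klf4, Klf11, 33980 bp away, and it had no peak.

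Ehf encodes an epithelial ETS factor. Its single peak, of 307 bp (chr2:103302692-103302998), lay inside the gene 277 bp from the higher-coordinate end. The adjacent gene on that side is its paralogue Elf5, 108823 bp away, which had no peak. No other peak of any list lay within 100 kb of Ehf.

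Cebpb, a leucine zipper factor of differentiating keratinocytes, had peaks only at a distance. A peak of 414 bp (chr2:167778213-167778626) lay 87781 bp beyond the gene and a peak of 248 bp lay 99584 bp beyond it. Both were in the interval of 240318 bp between Cebpb and Ptpn1, on the downstream side. Each overlapped an lncRNA gene, Gm14321 and Gm32513. Within 10 kb of Cebpb there was no peak, and with genes of all kinds Cebpb had 0.

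Klf5, which acts in proliferating epithelium, had no peak assigned. Nor had Tfap2c, a further AP-2 factor of the epidermis, or Cebpa, which acts together with Cebpb in keratinocyte differentiation. These genes differed in their surroundings. The peak nearest to Cebpa lay 37905 bp away and was assigned to Gm45095, which had a further peak 62120 bp from Cebpa. When all peaks within 100 kb were counted, Cebpa had 2. For Klf5 the nearest peaks, of 275 and 281 bp, lay 294123 and 319027 bp away (chr14:99607535-99607809 and chr14:99632439-99632719). They lie in the interval of 552769 bp between Klf5 and its paralogue Klf12 and were assigned to Klf12, at 258372 and 233462 bp. For Tfap2c the nearest peak lay 1.91 Mb away, farther than for 77.0% of genes, where the median over genes was 0.472 Mb.

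The 6 genes with peaks thus fell into different layouts. Grhl3 and Tfap2a had 5 peaks each inside the gene, and 11 of the 952 genes with a peak inside had more. The peaks covered 7.04% of Tfap2a, 4.45% of Grhl3, 1.71% of Grhl1 and 0.771% of Ehf, where the median over the 952 genes was 1.37%. Of all genes, 55 (0.251%) had 5 or more control peaks and 412 (1.88%) had 2 or more, and of the 9 genes 2 and 5 reached these numbers. These counts describe genes that were chosen with the results known, and no test was made of them.

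**Figure D3:**
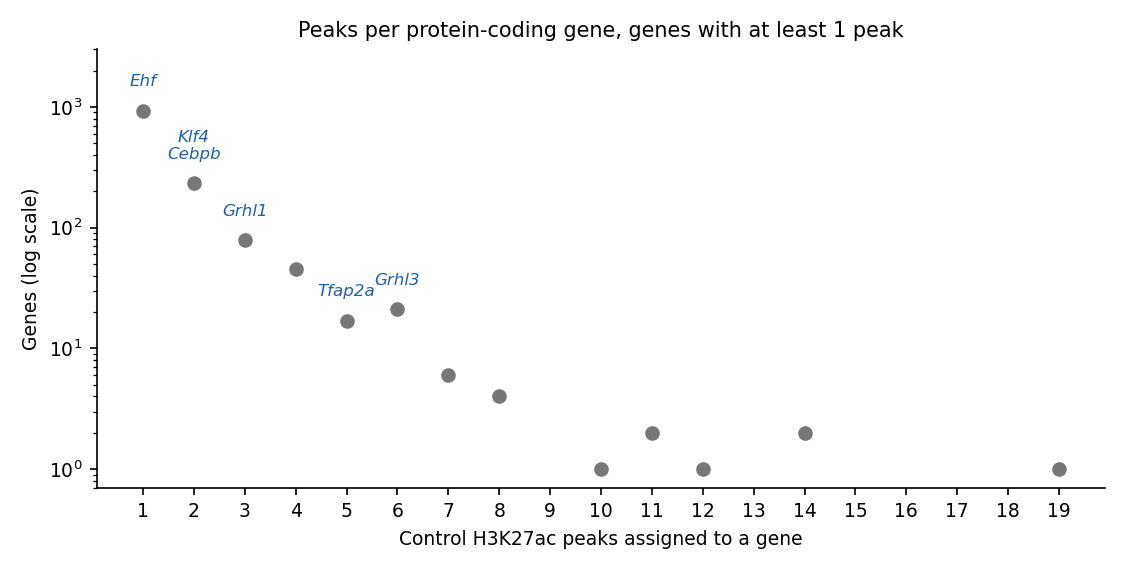
Number of protein-coding genes (log scale) against the number of control H3K27ac peaks assigned to a gene, for genes with at least 1 peak, with the 6 transcription factor genes named above their count. Grhl3, with 6 peaks, and Tfap2a, with 5, lie among the 55 genes with 5 or more, and Ehf among the 930 genes with 1.

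The peaks of the 9 genes had a neighbour within 2 kb in 12 of 19 cases (63.2%, 41.0 to 80.9), against 861 of 2139 placed peaks of the list (40.3%, 38.2 to 42.3). Within 12500 bp these shares were 15 of 19 (78.9%, 56.7 to 91.5) and 1141 of 2139 (53.3%, 51.2 to 55.4). The list share lay just below the interval in both cases. The peaks that lie together come from Grhl3, Tfap2a, Grhl1 and Cebpb and are not independent. The intervals treat peaks as independent, so they are no test of a difference. Peaks joined at gaps of up to 12500 bp gave 8 clusters for the 9 genes and 1393 for the whole list, of which 998 were single peaks. The clusters of Tfap2a and of Grhl3, which spanned 5632 and 8199 bp, held 5 peaks each, as many or more than all but 25 clusters.

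By place, 5 of the 19 peaks were within 1 kb of an end of their gene (26.3%, 11.8 to 48.8), against 764 of 2139 (35.7%, 33.7 to 37.8). A further 10 of 19 lay inside a gene away from its ends (52.6%, 31.7 to 72.7), against 832 of 2139 (38.9%, 36.9 to 41.0). Annotated lncRNA genes were overlapped by 5 of 19 (26.3%, 11.8 to 48.8) and by 302 of 2139 (14.1%, 12.7 to 15.7). In all 3 features the share of the list lay inside the interval of the 19 peaks. The intervals treat peaks as independent, which peaks of 1 gene are not, so they are no test against the list. The 5 that overlapped lncRNA genes were the nearer Klf4 peak, both Cebpb peaks and a pair at Tfap2a.

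Peak width is the only other value that the list carries. The 19 peaks had a median width of 307 bp, from 203 bp at Grhl3 to 842 bp at Klf4, against a median of 273 bp and a range of 199 to 1798 bp for the list. Of the 19, 11 were wider than the list median. The middle of the distribution ran from 259 to 363 bp for the 19 peaks (quartiles) and from 225 to 369 bp for the list, so that the widths overlapped almost entirely.

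**Figure D4:**
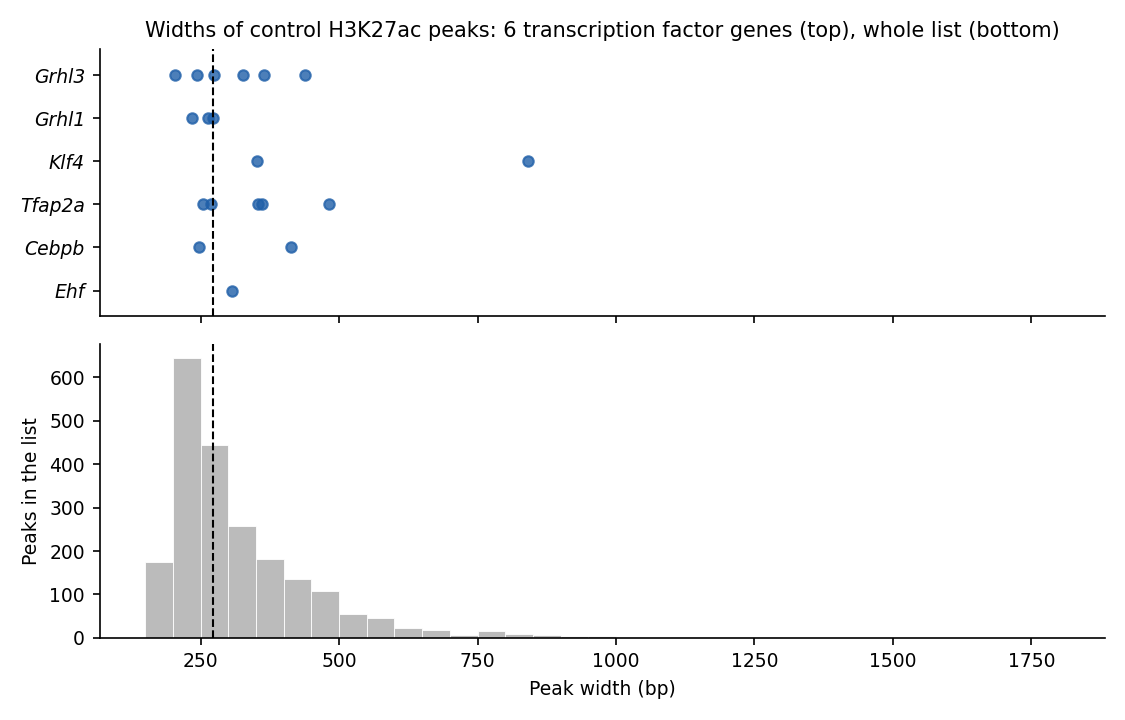
Widths in bp of the 19 control H3K27ac peaks, by gene (top, 1 point per peak), and of all placed peaks of the list in classes of 50 bp (bottom); the dashed line is the list median of 273 bp. Most points lie within the bulk of the list, and the Klf4 peak of 842 bp stands at its upper end.

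Counts for related genes are read beside the shares of all genes with an H3K27ac peak, 0.128% in the Utx-deleted list and 6.13% in the control list. At the first of these shares, the 0 found in the Utx-deleted list for each of the 3 gene lists below is near the background. Of 25 paralogues of the 9 genes, 0 had a peak in the Utx-deleted H3K27ac list and 3 in the control list (12%, against 6.13% of all genes), Klf6, Klf12 and Klf3. Klf6, an early response member of the family, had 7 control peaks, of which 2 lay inside the gene and 1 within 1 kb of an end, and the farthest 322918 bp away. Klf3 had 1 peak of 229 bp inside the gene. Both Klf12 peaks lay outside the gene, at 233462 and 258372 bp. The KLF counts thus depend on the nearest-gene rule, which also gave Klf4 a peak 590332 bp away. By family, with the 9 genes themselves included, control H3K27ac peaks were assigned to 2 of 3 GRHL genes (9 peaks) and 4 of 17 KLF genes (12 peaks). They were also assigned to 1 of 5 AP-2 genes (5 peaks), 1 of 5 C/EBP genes (2 peaks) and 1 of 4 epithelial ETS genes (1 peak). Outside the 9 genes, only Klf3, Klf6 and Klf12 contributed to these family counts. Grhl2 and Elf3, both expressed widely in epithelia, had none. In the UTX lists the paralogues had 0 peaks after deletion and 1 in control epidermis, near the background of 0.516% and 2.44% of genes. The control peak was 199 bp wide and lay 26509 bp outside Klf17.

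Of 28 other transcription factors of the epidermis, 0 had a peak in the Utx-deleted H3K27ac list and 4 in the control list (14.3%, against 6.13% of all genes). Among them were Gata3, the vitamin D receptor gene Vdr, and Myc. Gata3 had 19 peaks, the most of any gene, from inside the gene to 503888 bp outside it, and Vdr had 1 peak, of 301 bp, within 1 kb of a gene end. The Myc peak, of 199 bp, lay inside the gene. A control UTX peak of 200 bp was assigned to Myc as well, 203133 bp outside it, and it was the only UTX peak of this list. Ovol1, Zfp750, Prdm1 and the Notch effector gene Hes1, further regulators of differentiation, had no peak.

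Of 16 epidermal genes on which members of the 9 are known to act, 0 had a peak in the Utx-deleted H3K27ac list and 4 in the control list (25%, against 6.13% of all genes). Krt10, the type I keratin of the suprabasal layers, had 3 peaks of up to 268 bp, of which 1 lay inside the gene and the farthest 8523 bp outside. Dsg1a, a desmosomal cadherin gene, had 2 peaks inside it, and Dsg1c had 2 at 57418 and 57790 bp. Arhgef19, a target of Grhl3 in mice, had 1 peak of 211 bp, 1911 bp outside the gene. Tgm1, the transglutaminase of the cornified envelope and a Grhl3 target, had none, nor had Ivl, Flg or Tgm3. The single control UTX peak of this list was assigned to Lmo4, 497893 bp away, and the Utx-deleted UTX list had 0.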

How the data were processed

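Chromatin immunoprecipitation libraries of H3K27ac, UTX and input were made from mouse epidermis. Per the file headers, the authors called narrow peaks with MACS2 on the merged data of each group, and the 4 deposited lists give positions only, with no height or q. Per the submitters' processing notes FastQC, Bowtie2, deepTools and bedtools were used, with no version given. The notes name both GRCm38 and GRCm39. The share of placed control H3K27ac peaks within 1 kb of a GRCm38 gene end was 35.7%. After moving the peaks by 10 kb down or up it was 9.12% and 9.82%, and GRCm38 was used. The other lists were not checked by moving peaks, so the build was not tested for them. Their unmoved shares were 14.6% (Utx-deleted H3K27ac), 8.65% (Utx-deleted UTX) and 2.925% (control UTX).

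Peaks were assigned to protein-coding RefSeq genes on chromosomes 1 to 19, X and Y. A peak inside several genes counted for each, so some counts per gene exceed those of a single assignment. The 6 peaks on other sequence were left out. Coordinates are 1-based. Start sites and promoter sequences came from a RefSeq table that holds 6 of the 9 genes; its sequences run in the direction of the gene, checked on 1892 overlapping window pairs of opposite strands. Distances run from edge to edge. Shares have Wilson 95% intervals. No test was made, since each list merges its libraries. The 9 genes and all gene lists were chosen with earlier results of these data known, and they are no independent evidence. All 9 genes are named, as are the nearest protein-coding gene on either side and the listed genes with a peak, except some that are not reported here; listed genes without a peak were picked as examples. The 9 epidermal genes, 25 paralogues and 28 other factors all matched the annotation, and 16 of 17 target names did. The assignment was tested on simulated peaks. The software was matplotlib 3.10.9, pandas 2.3.3, numpy 2.4.6 and scipy 1.17.1, run under Python 3.11.15.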

Additional observations from a re-analysis of the deposited data

How the results depend on the processing

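Of 105 alternative values over 19 results, 91 stayed within 1.5 times the value reported and 14 moved further. Many of the 91 were counts of 0 beside a reported 0, so the 91 overstate how stable the other counts were. The counts of 0 in the Utx-deleted H3K27ac list and both UTX lists stayed 0 under all alternatives run. Settings that only drop peaks could not raise these counts, and no peak of these lists lay within 100 kb of the 9 genes. The 19 control H3K27ac peaks became 11 with the wider peaks of both genotypes only, a fall built into that setting, and ranged from 14 to 26 otherwise. The 9 genes with a control peak numbered 4 to 7 in place of 6. The 5 peaks within 1 kb of a gene end became 3 within 500 bp. Single genes that moved were Klf4 (1 within 10 kb or 100 kb, 0 with genes of all kinds), Cebpb (0 within 10 kb, 0 with genes of all kinds, 1 with wider peaks), Grhl1 (6 with every peak within 100 kb, 0 with wider peaks), Tfap2a (3 with wider peaks, 3 with peaks under 1 kb apart merged) and Cebpa (2 with every peak within 100 kb). Genes of all kinds were an alternative chosen after seeing the data. No paired analysis was possible because the libraries were pooled within each list, and for the same reason no library could be left out. The lists give no depth, height or q, so a stricter threshold was not tried and a gene without a peak may carry signal below the authors' threshold.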

Other observations

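Within 1 Mb of the 9 genes, control H3K27ac peaks were also assigned to other genes. Around Grhl3 there were 17 peaks in all, among them 1 at Id3, which encodes an inhibitor of basic helix-loop-helix factors, 1 inside Clic4, a chloride channel gene, and 1 inside Rpl11, a ribosomal protein gene. The interferon lambda receptor gene Ifnlr1, the neighbour of Grhl3, was assigned 4 of them, of which the nearest to Grhl3 lay 79419 bp away. Around Tfap2a the 5 peaks described were all that lay within 1 Mb. Around Ehf a peak lay inside Cd44, the hyaluronan receptor gene, 363571 bp away. The interval beyond Klf4 that holds no protein-coding gene had further peaks at 689789 and 950781 bp from Klf4, of 268 and 228 bp, which were assigned to Actl7b. Of the 18 protein-coding neighbours of the 9 genes, 0 had a Utx-deleted H3K27ac peak and 6 a control one, against 0.128% and 6.13% of all genes. The 0 is near the background, and the 6 were not tested. The 6 were Taf1b with 3, Ifnlr1 with 4, Actl7b, Klf12 and Gm45095 with 2 each, and Ptpn1 with 1. Those of Actl7b and Klf12 lay 233462 to 517474 bp from these genes, so the count of 6 depends on the nearest-gene rule. The neighbours without a peak were Klf11 beside Grhl1, Stpg1 beside Grhl3 at 4084 bp, Rad23b beside Klf4, Pibf1 beside Klf5, Ofcc1 and Gcnt2 beside Tfap2a, Fam209 and Bmp7 beside Tfap2c, Slc7a10 beside Cebpa, Tmem189 beside Cebpb, and Apip and Elf5 beside Ehf.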
